A study of Mus musculus with 2 samples.

Results

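The late cornified envelope genes of the Lce1 and Lce3 groups were examined in the skin of Pla2g2f-transgenic mice. The members are 10 named genes, Lce1a1, Lce1b, Lce1c, Lce1d, Lce1f, Lce1g, Lce3a, Lce3b, Lce3c and Lce3f. They were found on the array by gene symbol or by the transcript accession of the probe. A probe was found for 8 of the 10, all 6 Lce1 and 2 of 4 Lce3 members, among 10454 genes measured in all. Lce3a and Lce3b had no probe of their own. The study compared Pla2g2f-Tg/+ mice, which overexpress a secreted phospholipase A2, with their littermate controls, on a C57BL/6 background at 25 days of age. Skin RNA of 4 mice was pooled for each genotype, and both pools were put on 2 two-colour Agilent arrays, the transgenic pool in Cy5 on array 1 and in Cy3 on array 2. The sources used here do not give the promoter that drives the transgene.

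The cornified envelope is the crosslinked protein shell that replaces the plasma membrane of a keratinocyte as it dies and becomes part of the skin barrier. Late cornified envelope proteins are small, rich in cysteine, glycine and serine, and are crosslinked into that shell late in its assembly by transglutaminases. Their genes lie side by side in the epidermal differentiation complex. In human skin the LCE1 group is expressed in normal epidermis, while the LCE3 group is low there and is induced by barrier injury and in psoriatic plaques. The study's title describes alopecia and thickened, psoriasis-like epidermis, so the comparison asks how both groups differ between the pools.

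The promoters were compared within the groups and between them. RefSeq promoters of build GRCm38.p6 were matched for 9 of the 10 members, not Lce1f. The 100 bases before the start site are printed for 5 members that the results turn on. In capitals are the TATA-box core ATAAAA in all 5, the block ACTGTNTCACNGG in Lce1, and TTNNGNAA and GCATGCTTG in Lce3.
Lce1b promoter, chr3:92656927-92657026, minus strand: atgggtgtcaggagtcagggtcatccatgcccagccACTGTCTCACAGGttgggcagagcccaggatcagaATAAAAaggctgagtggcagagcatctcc
Lce1d promoter, chr3:92687211-92687310, minus strand: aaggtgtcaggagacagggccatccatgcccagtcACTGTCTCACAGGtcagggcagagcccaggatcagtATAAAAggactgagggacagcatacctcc
Lce1g promoter, chr3:92752339-92752438, minus strand: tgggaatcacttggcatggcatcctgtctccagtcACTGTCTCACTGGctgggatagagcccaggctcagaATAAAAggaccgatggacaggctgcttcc
Lce3c promoter, chr3:92944386-92944485, plus strand: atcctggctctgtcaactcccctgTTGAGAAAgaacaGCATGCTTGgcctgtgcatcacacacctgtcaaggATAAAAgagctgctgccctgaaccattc
Lce3f promoter, chr3:92992117-92992216, plus strand: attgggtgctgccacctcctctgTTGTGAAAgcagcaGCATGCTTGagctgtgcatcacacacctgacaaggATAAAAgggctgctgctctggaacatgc

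These letters were chosen after the promoters were seen, and a match is a description of the sequence only. Each was searched on both strands of 32544 distinct promoters from 250 bases before to 50 bases after the start, and the matches described do not overlap each other. The block ACTGTNTCACNGG was found in 9 promoters in all, or 0.0277%. All 9 were Lce1 genes, among them all 5 Lce1 members with a promoter, and it began 64 or 65 bases before the start. None (0) of the 4 Lce3 members held it. The pattern TTNNGNAA, common at 40.7% of all promoters, was in all 4 Lce3 members and in 0 of the 5 Lce1 members. The block GCATGCTTG, at 0.249% of promoters, was in Lce3c and Lce3f but not in the other 2 Lce3 members. ATAAAA, at 18.4% of promoters, was in 4 of 5 Lce1 and 4 of 4 Lce3 members. When these 100 bases were aligned, Lce3c and Lce3f were 82.4% identical. Lce1b was 84.2% identical to Lce1d, 76.2% to Lce1a1 and 71.8% to Lce1g, and Lce1d and Lce1g were 72.3% identical. Between the groups, Lce1g and Lce3f were 51.0% identical, as were Lce1b and Lce3f. Lce1g and Lce1m, an Lce1 gene outside the members, were 47.6% identical, so not every Lce1 pair was closer than these. Searches for an AP-1 pattern (TGANTCA, 7.79% of promoters), a STAT pattern (TTCNNNGAA, 8.33%) and a GRHL pattern (AACCNGTT, 2.09%) found no match in these windows of the members (0 of 9).

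The probes decide whether relatives can be told apart, so the stretches most alike are printed. The longest run of letters that a member's probe shared with the probe of another gene of the cluster was 17 bases, between Lce1g and Lce1i, in capitals here.
Lce1g probe, bases 6 to 35: caatgaCCATTTGCCTCTTTGTTataaatt
Lce1i probe, bases 31 to 60: gaaacgacaatgcCCATTTGCCTCTTTGTT
Both Lce3c probes overlap on the transcript and share 26 bases, so they are not independent of each other.
Lce3c probe used, bases 1 to 30: TCAAGAAAAGCCCAGCTAGTCTTGTTttat
Lce3c second probe, bases 31 to 60: ggggTCAAGAAAAGCCCAGCTAGTCTTGTT
The Lce3f probe shared no run longer than 8 bases with the probe of another gene of the cluster.
Lce3f probe, bases 1 to 30: tgataactgcctgggtggttatcatcctgt
No run of 20 bases was shared with any (0) of 41145 probes outside the cluster. These are comparisons of probes with probes. Binding to transcripts of near-identical relatives was not tested, and the values of single Lce genes are uncertain to that extent.

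Each value is the log2 ratio of transgenic over control on an array, so that 1 is a 2-fold difference. Nothing in the labels shows that each array had pools of its own, so both were averaged as 1 replicate with the dyes exchanged, and no test across mice is possible. A gene was called higher or lower when it differed at least 2-fold in the same direction on each array. Over all 10454 genes 389 (3.72%) were higher and 176 (1.68%) lower, and the median gene lay at -0.008. The added spike-in RNAs gave a shift of 0.46 toward the transgenic pool on the log2 scale, and after centring on them 176 genes were higher and 458 lower. The arrays differed by a median of 0.24 in absolute value. The probe for Pla2g2f itself read 0.54 and 0.34, a mean of 0.44 that was not called and lay below the spike-in shift of 0.46. The sources used here do not say whether the transgene contains the sequence of that probe.

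Of the 6 Lce1 members 3 rose in the transgenic pool, 0 fell and 3 did not pass, and of the 2 measured Lce3 members both rose. Neither Lce3 member was well above background in the control on array 1, so both counted as measured through the transgenic channel alone. With the background of array 1 modelled differently, neither was called. The Lce1 members spanned 0.54 to 2.71 with a median of 1.04, and Lce3c and Lce3f had means of 2.13 and 3.09. All 8 were above 0 on both arrays, and their means stayed above 0 after spike-in centring. In bulk skin, more cells of a type and more RNA per cell cannot be told apart.

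Among the Lce1 genes, which encode envelope proteins of the normal epidermis, Lce1g had the highest mean by its brighter probe. Its probe (NM_025413; mm8, chromosome 3, 92835770 to 92835829, minus strand) had a control signal of 655 and a transgenic signal of 3850 on array 1. The log2 ratios were 2.56 on array 1, with an error of the spot of 0.31, and 2.86 on array 2, a 6.54-fold higher level. Both arrays read well past 2-fold. A second Lce1g probe was not well above background in either channel, at 84.5 for control and 81.2 for transgenic. It read -0.06 with an error of 0.89 on array 1 and 0.27 on array 2, and averaging it in would give Lce1g 1.41, an alternative chosen after seeing the data.

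Lce1f (NM_026394; mm8, chromosome 3, 92804112 to 92804171, minus strand) stood next. Its signal on array 1 went from 2720 in the control to 12400 in the transgenic pool. The log2 ratios were 2.19 with an error of 0.29 and 1.89, and its mean fold was 4.12. Lce1g lay above Lce1f by 0.36 on array 1, less than the combined error of 0.43, and by 0.97 on array 2, so their order is not settled by array 1. With the background of array 1 modelled differently, Lce1g read 1.56 and Lce1f 1.85 on that array, with means of 2.21 and 1.87. With all probes averaged, Lce1g had 1.41 and Lce1f 2.04. Their order therefore depends on the processing.

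Lce1d (NM_027137; mm8, chromosome 3, 92770927 to 92770986, minus strand) rose 2.28-fold. Its log2 ratios were 1.25 with an error of 0.23 and 1.13, from signals of 5990 and 14200 on array 1. It lay just past the size rule, and after spike-in centring its mean was 0.73 and it was no longer called. Lce1f exceeded Lce1d by 0.94 on array 1, with a combined error of 0.37, and by 0.77 on array 2.

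The remaining Lce1 members were above 0 on both arrays without passing the rule. After spike-in centring the means were 0.44 for Lce1a1, 0.26 for Lce1b and 0.08 for Lce1c, the last less than its spot error of 0.21. Lce1a1 (NM_025984; mm8, chromosome 3, 92731970 to 92732029, minus strand) read 0.83 and 0.96, with signals of 10500 and 18800. Lce1b (NM_026822; mm8, chromosome 3, 92741123 to 92741182, minus strand) read 0.80 and 0.64, and its second probe 0.83 and 0.60. These 2 probes of Lce1b differed by less than the spot error of 0.22. Lce1c (NM_028622; mm8, chromosome 3, 92766195 to 92766254, plus strand) read 0.54 on both arrays, with signals of 7220 and 10500. Lce1a1 and Lce1b would pass a rule of 1.5-fold on each array, under which 8.26% of all genes are higher and 3.8% lower, whereas Lce1c would not. The neighbours in this order, Lce1a1, Lce1b and Lce1c, differed by 0.04 and 0.25 on array 1, less than the combined errors of 0.31 and 0.30. Within the group, Lce1g exceeded Lce1b by 1.76 with a combined error of 0.38 on array 1, and by 2.22 on array 2.

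**Figure D1:**
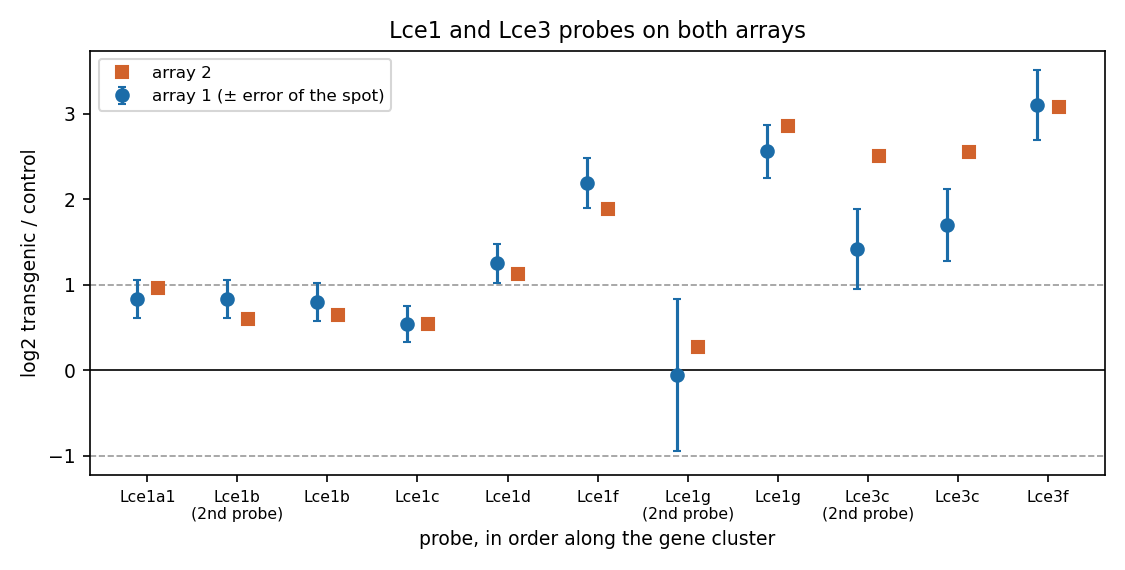
Log2 ratio of transgenic over control for each of the 11 member probes, with circles for array 1 (bars are the error of the spot) and squares for array 2, and dashed lines at 2-fold. Lce1d, Lce1f, Lce1g, Lce3c and Lce3f lie past 2-fold on both arrays, and the second Lce1g probe, which was dim, lies near 0.

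The Lce3 genes are the group induced after barrier injury. Lce3f (NM_001018079; mm8, chromosome 3, 93078758 to 93078817, plus strand) had a control signal of 93.8, not well above background, and a transgenic signal of 803. Its log2 ratios were 3.10 with an error of 0.41 and 3.08. Its mean of 3.09 rests on that dim control signal. Against the lowest control signal that was well above background, 199, its level on array 1 was 4.04-fold higher. Such folds are written "at least" below. They are not strict bounds, since some signals above 199 were also not well above background.

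Lce3c (NM_033175; mm8, chromosome 3, 93030987 to 93031046, plus strand) was also dim in the control, at 105, and read 340 in the transgenic pool. Its log2 ratios were 1.70 with an error of 0.42 and 2.55, and, set against 199 in the same way, array 1 gave a 1.71-fold higher level. The arrays differed by 0.86, more than for any other measured member. The second, overlapping probe read 1.42 and 2.50 but was not well above background in either channel, at 99.3 and 265. That probe also lists the Lce3b transcript, so Lce3b was not measured apart from Lce3c. With the background of array 1 modelled differently (normexp with an offset of 50, then loess), Lce3c read 0.35 and Lce3f 0.86 on that array, and neither was called. The offset pulls ratios of dim spots toward 0 by its construction.

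**Figure D2:**
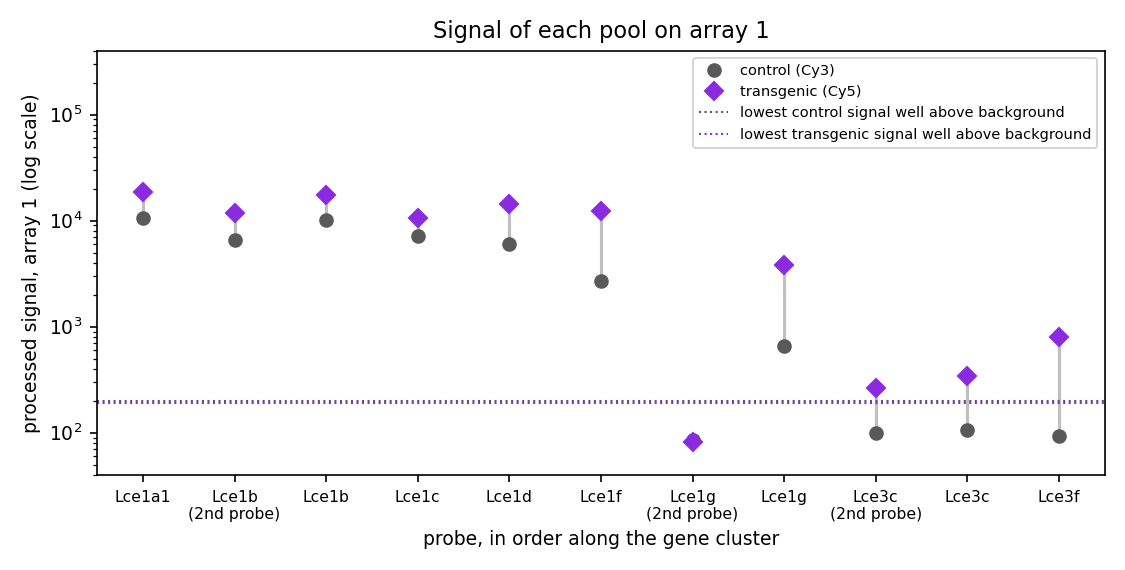
Processed signal on array 1 for the control pool (circles) and the transgenic pool (diamonds) of each member probe, on a log axis, with dotted lines at the lowest signals well above background, 199 and 190. The control signals of the Lce3 probes, 93.8 to 105, lie under the line, and those of the Lce1 probes standing for a gene lie above it.

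Detection was counted beside the ratios. In the control pool all 6 Lce1 members were well above background on array 1 and 0 of the 2 Lce3 members were, while in the transgenic pool all 8 were. A gene counted as measured only if it was well above background in either channel. The detection of these 2 Lce3 members in the transgenic pool therefore follows from that filter. Signals of different probes cannot be set against each other, so this is a count of probes detected. The Lce3 median exceeded the Lce1 median by 1.36 on array 1 and 1.77 on array 2. The ranges of the groups overlapped, since Lce1g at 2.71 lay above Lce3c at 2.13. Lce3f exceeded Lce1g by 0.54 on array 1 with a combined error of 0.51 and by 0.21 on array 2. Set against 199, the folds of the Lce3 genes on array 1, 1.71-fold and 4.04-fold, were both below the 5.88-fold of Lce1g there. Taking 199 lowers the Lce3 folds by construction, while Lce1g keeps its own control signal of 655. These folds therefore cannot show which gene rose more. With 2 Lce3 genes near background, no difference between the groups was tested.

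**Figure D3:**
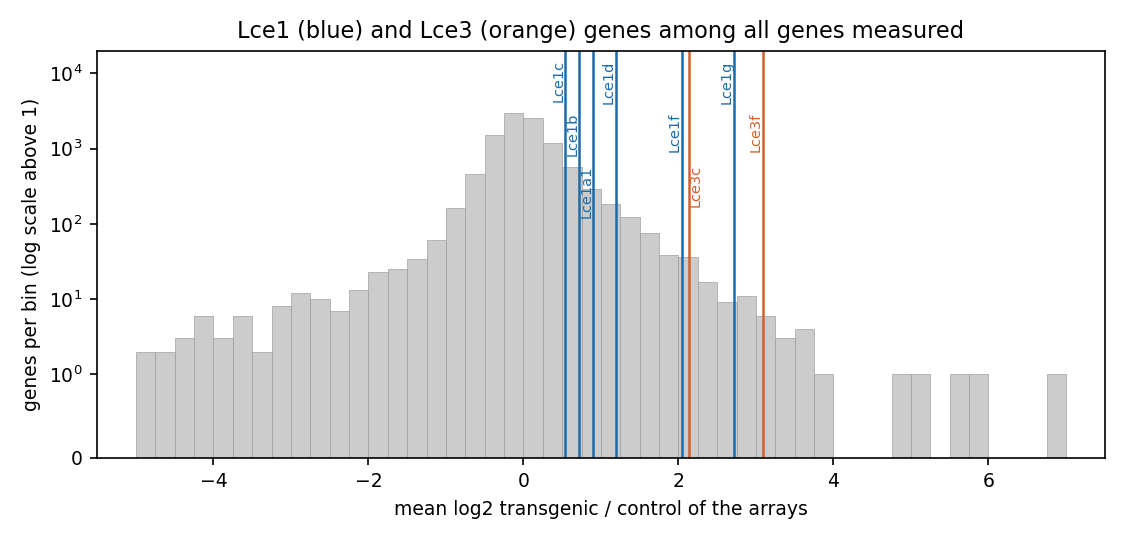
Number of genes per bin of the mean log2 ratio over all 10454 genes, with a log scale, and vertical lines at the 6 Lce1 (blue) and 2 Lce3 (orange) members. Among the 9181 genes well above background in both channels, Lce1g ranked 10 from the highest and Lce1c, the lowest member, 919, while the Lce3 lines rest on dim control signals and are given no rank.

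Along chromosome 3 the ratios varied with the place in the gene cluster. From Lce1a1 to Lce1m 18 genes were measured, 8 rose, 0 fell and 10 were not called. After spike-in centring 7 rose and Lce1m alone fell (1), and under the other background model of array 1 6 rose and 0 fell. From Lce1c at 0.54 the means were 1.19 for Lce1d, 1.71 for Lce1e, 2.04 for Lce1f and 2.71 for Lce1g. Beyond it Lce1h had 2.31, Lce1i 1.79 and Lce1j 0.99, of which Lce1h and Lce1i were called. With its dim second probe averaged in, Lce1g would read 1.41, below Lce1f. Kprp, Lce1l and 2310050C09Rik, at 0.18, 0.08 and -0.07, separated these from Lce3c and Lce3f. Crct1, at 0.29, lay between Lce3f and Lce1m. Lce1m, at the far end, read -1.22 and -0.91 and was not called. Over all 13 measured Lce1 genes the median was 0.99, with 6 higher and 0 lower, or 5 and 1 after spike-in centring. These are neighbouring genes on the same arrays, and the pattern is given as a description.

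**Figure D4:**
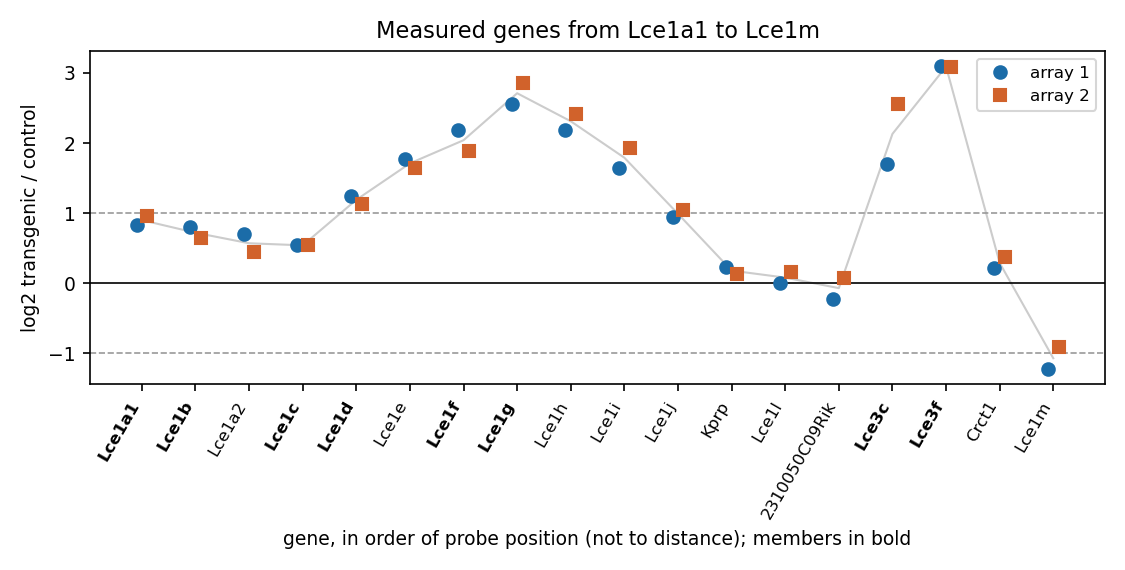
Log2 ratio of 18 measured genes in the order of their probes from Lce1a1 to Lce1m, not to distance, with members in bold, circles for array 1, squares for array 2 and a grey line through the means. Values climb from Lce1c (0.54) to Lce1g (2.71), return to 0.18 at Kprp, and are 2.13 and 3.09 at Lce3c and Lce3f.

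The Lce1 block was in 9 of 13 Lce1 promoters and was not found in those of Lce1j, Lce1k, Lce1l and Lce1m. Without the block, Lce1j had a mean of 0.99, Lce1l 0.08 and Lce1m -1.07. With it, Lce1a1 (0.90), Lce1b (0.72), Lce1a2 (0.57) and Lce1c (0.54) lay below Lce1j, and Lce1d, Lce1e, Lce1g, Lce1h and Lce1i above it. A link between block and ratio was not tested. The 100 bases before the start of Lce1m, 47.6% identical to those of Lce1g, are printed as an example of a promoter without it, with ATAAAA in capitals.
Lce1m promoter, chr3:93019062-93019161, minus strand: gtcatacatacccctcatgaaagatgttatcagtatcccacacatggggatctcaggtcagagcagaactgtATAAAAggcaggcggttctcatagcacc

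The other structural genes of the epidermal differentiation complex varied in both directions. Of 28 listed 14 were measured, 3 rose and 1 fell, with a median of 0.45 that became -0.01 after spike-in centring. The count that rose was 1 under the other background model of array 1, and 0 of 10 where signal in both channels was required. Sprr2d, Sprr2h and Rptn, which encode other envelope proteins, had means of 5.70, 2.81 and 2.15. All were dim in the control on array 1, and there they were at least 25.1-fold, 2.77-fold and 1.59-fold higher. Tchh, trichohyalin of the inner root sheath, had a mean of -2.79. Loricrin, the main envelope protein (Lor), had a mean of 0.44 and involucrin (Ivl) 0.64, neither called.

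Genes of the machinery that builds the envelope gave mixed values. Of 13 listed enzymes 11 were measured, 2 rose and 2 fell, with a median of 0.10, and after spike-in centring 0 rose and 4 fell, with a median of -0.36. Casp14, a protease of filaggrin breakdown, and Asprv1, a protease of the granular layer, had means of 1.32 and 1.21. Padi3 and Padi4, which convert arginine to citrulline, had means of -2.85 and -1.62, of which Padi4 was dim in the transgenic channel and at least 2.34-fold lower on array 1. Under the other background model of array 1, 1 enzyme rose and 1 fell. Of 17 other late differentiation genes 15 were measured, 3 rose (Krt1 at 2.26, Calm4 at 1.78, Cnfn at 1.19) and 0 fell, with a median of 0.39. After spike-in centring 2 rose and 1 fell, with a median of -0.07. Calm5, at -1.03, was not called and was dim in the transgenic channel. It was the 1 that fell after that centring, at -1.49. Of 25 regulators 24 were measured, 0 rose and 1 fell, Dlx3, a homeobox factor, at -1.95. Dlx3 was dim in the transgenic channel and at least 3.16-fold lower on array 1. After spike-in centring 7 regulators fell, and under the other background model 0 did.

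Markers of other cells and states moved with these results, and their part in them was not tested. Of 6 markers of activated epidermis 3 rose, Krt16 (3.38), S100a8 (5.9) and S100a9 (6.95). The keratins Krt6a (0.53), Krt17 (0.07) and Krt6b (-0.07) were not called. The summed signal of all 6 on array 1 went from 43800 to 99600. In this and the sums below the brightest probes weigh most. S100a8 was the only one of them dim in the control. Of 6 basal keratinocyte markers 1 rose, or 0 after spike-in centring, with a sum of 179000 and 245000. All 7 measured hair shaft keratins fell, with a sum of 83300 and 10100, and all 5 measured inner root sheath keratins fell, with a sum of 242000 and 51100. Of 7 listed sebaceous genes 5 were measured, Scd1, Fasn, Mgst1, Elovl3 and Cidea, while Scd3 and Awat2 were not well above background. All 5 measured rose (39900 to 119000), or 3 after spike-in centring. Of 4 adipocyte genes 4 rose (97700 to 314000), or 2 after that centring, and of 3 measured macrophage genes 2 rose (10100 to 24000), or 0. Of 4 fibroblast genes 0 passed (400000 and 409000), and of 5 muscle genes 2 rose (376000 and 454000), or 0 after spike-in centring. The counts of activated epidermis and hair follicle markers were the same after that centring. Of 5 T cell markers 4 had a probe, and 1, Cd3e, was measured, dim in the control and not called. The others with a probe were not well above background.

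The members kept their direction under the other ways of processing that were tried, several of which could not change a member with a single probe. Lce1f and Lce1g were called under each of these, Lce1d under all but the spike-in centring, and Lce3c and Lce3f under all that measured them but the other background model of array 1.

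**Figure D5:**
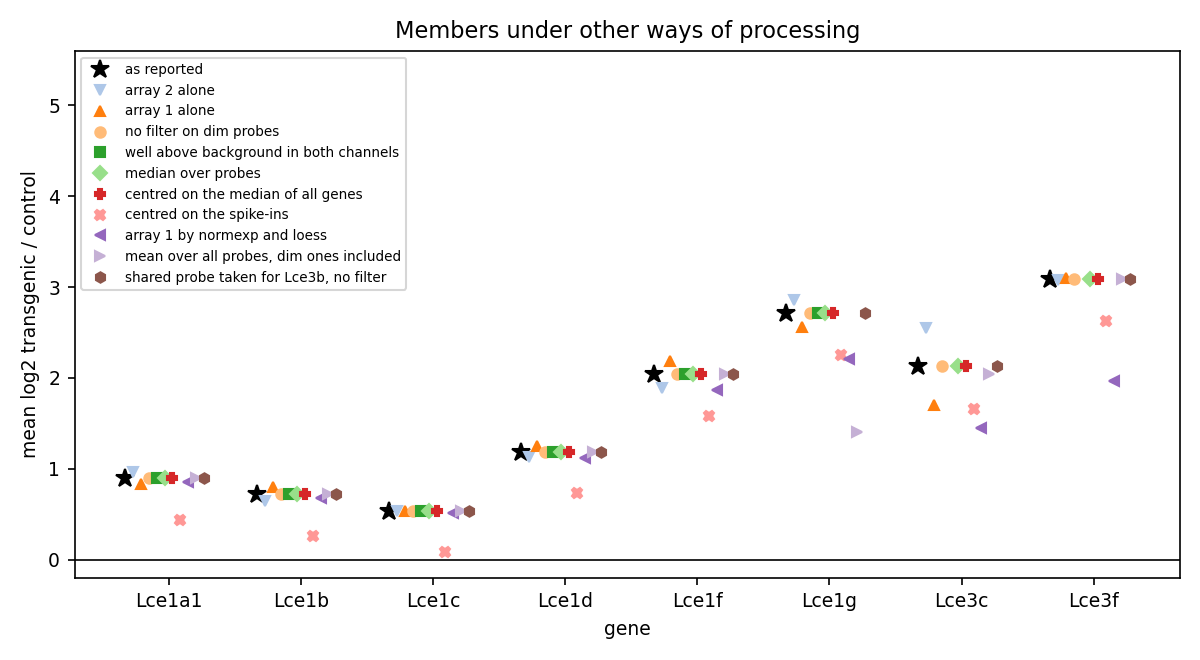
Mean log2 ratio of each measured member as reported (stars) and under the other ways of processing, by colour and shape. Lce1g spans 1.41 to 2.86, Lce3f 1.97 to 3.10, and Lce1c 0.08 to 0.54.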

How the data were processed

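Per the labels, 500 ng of total RNA was labelled for each channel. The deposited scanner output of array 1 gives each spot's intensity in 2 channels and a log10 ratio with its error, made by Agilent Feature Extraction 9.5.1.1, per the file headers. The program's flags and probe annotation, of the kind "other", are also deposited. The authors' value table holds 2 columns of log10 ratios, Cy5 over Cy3. Its first column equalled the log10 ratio of the processed signals of array 1 at 43790 features within 1e-06. The sources used here give no later steps. Before any sign was turned, both columns had a correlation of -0.579 across 41534 non-control features, and their medians were 0.0145 and -0.0243. The spike-ins (10 of 11 probes, those well above background, a choice made after their values were seen) correlated at 1.00, so dyes were exchanged and array 2 was turned. Scanner values of array 2 were not analysed here.

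The deposited log10 values were converted to log2. Control spots and 29 outlier spots were left out. A gene was represented by its brightest probe among those detected well above background in either channel of array 1. Each member probe was printed once (1 spot). The lowest signal flagged well above background was 199 in Cy3 and 190 in Cy5. These are not strict limits, since the second Lce3c probe, at 265 in Cy5, was not so flagged. A fold given as "at least" takes 199 for a dim control and 190 for a dim transgenic signal, or the spot's own signal where higher. It rests on array 1 alone and is not a strict lower bound. Errors are those of Feature Extraction for a spot. The number of arrays limits the precision. Names came from RefSeq tables (GRCm38.p6), by accession for 24370 probes, and probe positions come from the array's own annotation, on mm8. Every member is named, and from each other list up to 4 genes with the largest absolute mean plus close relatives; Lor and Ivl were added after their values were seen. The members and lists were chosen with earlier results of these data known. Python 3.11.15, pandas 2.3.3, R 4.3.3 and limma 3.58.1 were used. The size rule was run on simulated data in which every added difference lay past 2-fold and the noise came from these arrays. That checks the code only, not how the rule behaves across mice.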

Additional observations from a re-analysis of the deposited data

How the results depend on the processing

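No paired analysis was possible because both arrays carry the same contrast and there are no separate groups of samples to pair. The 8 measured members kept their direction in all 78 values under the 10 alternatives other than the 1.5-fold rule, and 75 also kept their call. These values are not separate checks. For a member with a single probe, such as Lce1a1, several alternatives return the same value by construction, and either array alone repeats a value given above. Under the 1.5-fold rule Lce1a1 and Lce1b became called. Centred on the spike-ins, the Lce1 median was 0.58, the Lce3 median 2.15, and the counts over all genes 176 higher and 458 lower. The shift was 0.46 with 10 spike-in probes or all 11. There the medians of the other lists turned to -0.027 (other Lce genes), -0.014 (other complex genes), -0.36 (enzymes) and -0.066 (late differentiation). Under normexp and loess the Lce1 median was 0.99, the Lce3 median 1.71, their difference 0.72 and the Lce3 count 0, with 107 higher and 56 lower over all genes. Requiring signal in both channels left 0 Lce3 genes, with 243 higher and 86 lower. At 1.5-fold 5 Lce1 members were higher, with 864 higher and 397 lower overall. Taking the shared probe for Lce3b, chosen after seeing the data like the mean over all probes, gave an Lce3 median of 2.13 and a difference of 1.08. With either array alone, 520 to 568 genes were higher and 259 to 274 lower, the Lce3 median was 2.40 to 2.82, and the regulators' median was 0.00066 on array 1 and -0.21 on array 2. Lce3 ratios are limited by control signals near background.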

Other observations

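Regulators of late keratinocyte differentiation, listed beside the Lce genes, had a median of -0.13 over 24 measured genes (0.00066 on array 1 alone). Ahr, the aryl hydrocarbon receptor, had a mean of 0.94 and Cebpa, a leucine zipper factor, 0.88, neither called. Ovol1, a zinc finger factor, had a mean of -0.85 and was not called. Cebpa read 0.32 on array 1 and 1.44 on array 2, so its arrays lay far apart.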
